A study of Mus musculus with 16 samples.

Results

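The ADAMTS matrix proteases described here are 8 genes of the 23999 gene symbols in the count table, Adamts1, Adamts2, Adamts4, Adamts5, Adamts9, Adamts10, Adamts12 and Adamts15. They were selected on measured values, because Adamts15 had counts in mouse myeloid sarcomas and was near 0 in leukaemic bone marrow. The 8 genes were taken by symbol, and all 8 had counts in at least 1 library and passed the filter on low counts. Since the selection used the difference between sarcoma and marrow, that difference is given for them as a description with no test. The other 11 ADAMTS proteases of the mouse were read beside them.

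ADAMTS enzymes are secreted zinc metalloproteases that carry thrombospondin type 1 repeats, which hold them in the extracellular matrix. They are made as inactive proenzymes, are matured by furin-type convertases, are inhibited above all by TIMP3 and are cleared from the pericellular space through LRP1. One branch cuts large chondroitin sulphate proteoglycans such as versican and aggrecan, another removes the amino-terminal propeptide of fibrillar procollagens, and others work on microfibrils or cartilage proteins. Their best known sources are fibroblasts, smooth muscle, endothelium and chondrocytes rather than leukaemic blasts.

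A myeloid sarcoma is a solid mass formed by acute myeloid leukaemia at a site other than bone marrow. Poly(A) RNA was sequenced from sarcomas of 4 NPM1cA/SMC3+/- mice (6 tumours, with 2 each from mice 948 and 2721), from whole bone marrow that leukaemia had infiltrated in 9 NPM1cA/SMC3+/- mice, and from 1 sarcoma, of mouse 841, that carried NPM1cA with wild type SMC3. NPM1cA, the cytoplasmic mutant of nucleophosmin, was thus present in every group, SMC3+/- removes 1 copy of a cohesin subunit, and marrow of mouse 841 was not analysed here. Mice 1267 and 2721 gave both tissues. Whether 1268_1270 stands for 1 animal or for a pool of 2 is not clear from its label, and it was counted as 1. Ages, the promoter behind NPM1cA and the altered stretch of Smc3 are not given in the labels. Tumours were dissected from the tissue around them and lysed directly, whereas marrow was crushed, filtered and freed of red cells first, so tissue and handling cannot be told apart. In such bulk samples more cells of a type and more RNA per cell cannot be told apart either.

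Library totals ranged from 9797201 counts in the sarcoma of mouse 841 to 39197660 in marrow 919. Smc3 itself had 63.6 to 217 CPM (the count of a gene relative to its TMM-scaled library total) in the SMC3+/- sarcomas and 137 CPM in mouse 841, so its level did not separate the genotypes. The marrow libraries 737, 779 and 782 stood apart with low counts over transcripts longer than 6000 bases, at a median log2 deviation of -2.16 to -1.96, followed by marrow 1267 at -0.63 and tumour 1 of mouse 948 at -0.58, against -0.05 to 0.45 in the other 11 libraries. Sarcoma 1268_1270 stood apart with 42240 CPM summed over 7 adipocyte markers, against 219 to 587 CPM in the other 3 SMC3+/- sarcomas, and with 478 CPM over 8 leukocyte markers, against 3520 to 7676 CPM. Ptprc, the pan-leukocyte gene CD45, had 57.0 to 510 CPM in the SMC3+/- sarcomas and 68.0 to 1146 CPM in marrow, and the myeloid granule gene Mpo 21.9 to 12550 and 742 to 19060 CPM, so both were detected in every sample at uneven levels.

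The catalytic site is what these genes share, and 1 of its codons divides them into 2 groups that only partly match the proteoglycan-cutting branch. Below are the 33 coding bases of the zinc-binding site of each gene, read from the GENCODE M21 transcripts (GRCm38), 5′ to 3′. Capitals mark the codons of the 3 zinc-binding histidines, the catalytic glutamate and the codon at position 8 of the 11 codons.
Adamts1: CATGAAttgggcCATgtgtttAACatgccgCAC
Adamts4: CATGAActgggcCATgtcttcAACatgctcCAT
Adamts9: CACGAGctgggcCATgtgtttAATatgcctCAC
Adamts15: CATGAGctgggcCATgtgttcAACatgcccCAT
Adamts5: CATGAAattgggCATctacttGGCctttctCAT
Adamts2: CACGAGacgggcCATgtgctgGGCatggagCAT
Adamts12: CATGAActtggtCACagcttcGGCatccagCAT
Adamts10: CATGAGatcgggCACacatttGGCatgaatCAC
Position 8 is an asparagine codon (AAC or AAT) in Adamts1, Adamts4, Adamts9 and Adamts15 and a glycine codon (GGC) in the other 4. Adamts15 shares 30 of 33 bases with Adamts4, 28 with Adamts1, 28 with Adamts9 and 19 with Adamts5. The proteins those transcripts encode range from 845 residues for Adamts4 to 1931 for Adamts9. Adamts1 and Adamts5 are neighbours on chromosome 16, and Adamts15 lies next to Adamts8 on chromosome 9.

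Among the proteoglycan-cutting enzymes, Adamts15, a versicanase and aggrecanase, was the gene behind the selection. Its level was 2.05 CPM in the sarcoma of mouse 948, 3.66 CPM in mouse 1267, 10.25 CPM in mouse 2721 and 15.5 CPM in 1268_1270 (mean 7.86 ± 6.19 CPM, SD, n = 4). In marrow it had 0 counts in 8 of 9 mice and 2 counts, or 0.0465 CPM, in mouse 919. All 4 sarcomas thus lay above all 9 marrows, and no single tumour carried the pattern, since the highest sarcoma was only 1.51 times the next. Over the pooled libraries the sarcoma level was 775 times the marrow level, with a counting interval of 214 to 6409 (95%, exact, counting error only). The fitted log2 difference was 9.32 ± 1.08 (SE, approximate, and dependent on the prior count at such low marrow counts). It went from 7.54 with limma-voom to 11.70 with scaling to leukocyte genes over 23 alternatives.

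Adamts1, a versicanase induced by inflammation and hypoxia in many tissues, was at a like level in 3 of the 4 sarcoma mice. It had 6.69 CPM in sarcoma 1267, 6.83 CPM in 2721, 7.42 CPM in 948 and 59.99 CPM in 1268_1270. In marrow it ranged from 0 in 3 mice (737, 779 and 782) through a median of 0.200 CPM to 2.71 CPM in mouse 1267. The lowest sarcoma was therefore above the highest marrow. Without 1268_1270 the sarcoma mean was 6.98 ± 0.39 CPM (SD, n = 3), against 0.556 ± 0.864 CPM in 9 marrows. The value of mouse 948 joins tumours at 2.995 and 13.34 CPM, so single tumours varied more than this SD shows. The log2 difference over all mice was 5.12 ± 1.19.

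Adamts4, also called aggrecanase 1, stayed low everywhere. Its sarcoma levels were 0.705 CPM in 948, 0.807 CPM in 1267, 0.828 CPM in 2721 and 4.17 CPM in 1268_1270. Marrow had 0 counts in 7 mice, 0.262 CPM in 3332 and 0.325 CPM in 919. With the tumours of a mouse summed the groups did not overlap, although both were under 1 CPM outside 1268_1270. Tumour 1 of mouse 948 alone had 4 counts, or 0.235 CPM, below both marrows with counts. The log2 difference was 4.45 ± 1.36, and 3.34 without 1268_1270.

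Adamts5, also called aggrecanase 2, reached by far the highest level of the family in 1 tumour. Its level was 10.04 CPM in sarcoma 948, 12.7 CPM in 2721, 15.5 CPM in 1267 and 770 CPM in 1268_1270, which was 49.6 times the next tumour. In marrow 5 mice had 0 counts and the highest, mouse 1103, had 1.30 CPM. The groups did not overlap with or without 1268_1270, where the remaining mean was 12.7 ± 2.74 CPM (SD, n = 3). The log2 difference of 9.25 ± 1.51 came to 5.20 without that tumour.

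Adamts9, a broadly expressed proteoglycanase that also works in the secretory pathway, had overlapping groups. Its sarcoma levels were 1.56 CPM in 1267, 1.66 CPM in 2721, 2.39 CPM in 948 and 30.1 CPM in 1268_1270. Marrow had 0 counts in 6 mice, 0.0327 CPM in 3332, 0.389 CPM in 1103 and 13.3 CPM in 919. Marrow 919 alone thus lay above 3 of the 4 sarcomas, and without it the highest marrow was 0.389 CPM, below all of them. The log2 difference of 2.64 ± 1.84 went to 7.10 without marrow 919 and to 0.28 without sarcoma 1268_1270.

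Outside that branch, Adamts2, which removes the amino-terminal propeptide of procollagens I, II and III, was present in both tissues. It had 10.8 CPM in sarcoma 948, 47.9 CPM in 2721, 90.9 CPM in 1267 and 184 CPM in 1268_1270, against 0 CPM (mice 737 and 779) to 46.9 CPM (mouse 3332) in marrow, with a median of 11.6 CPM. With tumours of a mouse summed, sarcoma 948 lay inside the marrow range and the other 3 above it, and the log2 difference was 2.54 ± 1.26. Of the tumours of mouse 2721, tumour 1 had 54.2 CPM and tumour 2 had 41.0 CPM, so tumour 2 alone lay inside the marrow range. The 9 marrows were themselves uneven, with 12.7 CPM in 919, 11.6 CPM in 2721, 23.1 CPM in 782 and 30.5 CPM in 1267 but only 0.162 CPM in 1103 and 1.85 CPM in 949.

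Adamts12, which cuts cartilage oligomeric matrix protein, had 0 counts in both tumours of mouse 948. It had 0.962 CPM in sarcoma 2721, 1.35 CPM in 1267 and 32.96 CPM in 1268_1270, and 0 counts in 6 marrows with a highest value of 0.561 CPM in mouse 2721. The groups overlapped because of mouse 948, which like the 6 marrows was at 0, and the log2 difference was 6.34 ± 1.66, or 2.76 without 1268_1270.

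Adamts10, a microfibril-associated member that binds fibrillin-1, showed no tissue difference beyond its spread. Its sarcoma levels were 12.8 CPM in 948, 26.4 CPM in 1267, 43.2 CPM in 1268_1270 and 73.7 CPM in 2721, and it was the only gene of the 8 whose highest sarcoma was not 1268_1270. In marrow it ranged from 3.83 to 84.6 CPM with a median of 52.8 CPM and no mouse at 0. The log2 difference was -0.04 ± 0.82, and its sign turned in 11 of 23 alternatives.

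**Figure D1:**
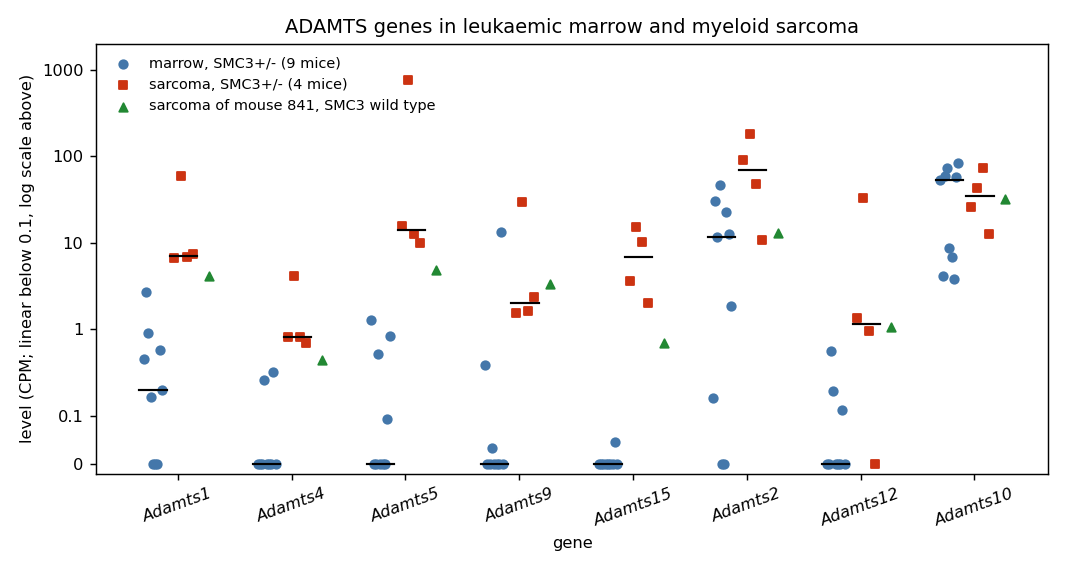
Level of each ADAMTS gene in CPM (linear below 0.1, log scale above) in 9 marrows, 4 SMC3+/- sarcomas and the sarcoma of mouse 841, 1 point per mouse and tissue, with black bars at the group medians. The groups do not overlap for Adamts1, Adamts4, Adamts5 and Adamts15, overlap through marrow 919 for Adamts9 and through sarcoma 948 for Adamts2 and Adamts12, and overlap throughout for Adamts10.

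With tumours of a mouse summed, 4 of the 8 genes had every sarcoma above every marrow, where 4.43% of the 14730 genes tested did so. The selection rests on this contrast, so nothing is read from the difference between those shares. These genes were Adamts1, Adamts4, Adamts5 and Adamts15, and the count was also 4 without sarcoma 1268_1270 and without marrows 737, 779 and 782. Without marrow 919 Adamts9 joined them and made 5, where 4.81% of genes did so. Of these 4, Adamts1, Adamts4 and Adamts15 carry the asparagine codon at position 8 and Adamts5 the glycine codon. In 6 of the 8 genes every sarcoma exceeded 1 CPM, the exceptions being Adamts4 and Adamts12. With the mouse as a block, a fit that rests on mice 1267 and 2721 for the contrast and has 1 residual degree of freedom, the log2 differences were 1.95 for Adamts1, 1.65 for Adamts2, 7.38 for Adamts4, 11.4 for Adamts5, 8.36 for Adamts9, 1.29 for Adamts10, 2.73 for Adamts12 and 10.55 for Adamts15.

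Per kilobase of transcript, the scale on which genes can be compared, Adamts2 and Adamts10 led in the 4 sarcomas with median levels of 9.55 and 8.61 CPM per kb. Adamts1 (1.46), Adamts5 (1.31) and Adamts15 (1.17) followed close together, and Adamts9 (0.252), Adamts4 (0.186) and Adamts12 (0.135 CPM per kb) came last. Neighbours in this order did not differ beyond their spread, since Adamts2 ran from 1.49 to 25.3 CPM per kb, Adamts10 from 3.17 to 18.2 and Adamts15 from 0.346 to 2.61. Adamts5 moved from the fourth place to the first in 1268_1270, where it had 71.4 CPM per kb. In marrow Adamts10 led with a median of 13.1 CPM per kb, Adamts2 had 1.60 and Adamts1 0.0409, and the medians of the other 5 were 0.

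The mixture of the 8 genes therefore differed among sarcomas. Of their summed CPM, not corrected for transcript length, Adamts10 took 47.6% in mouse 2721, Adamts2 61.9% in mouse 1267 and Adamts5 67.5% in 1268_1270. In mouse 948 the largest shares were those of Adamts10 (27.7%), Adamts2 (23.4%), Adamts5 (21.7%) and Adamts1 (16.04%). Per kilobase that sarcoma had 3.17 CPM of Adamts10, 1.52 of Adamts1, 1.49 of Adamts2 and 0.931 of Adamts5. The summed CPM of the 8 genes was 46.3 in 948, 147 in 1267, 155 in 2721 and 1140 in 1268_1270. In marrow 1 of 2 genes always held most of the sum. Adamts10 held 68.3% in mouse 919, 95.8% in 1103 and 96.7% in 949, and Adamts2 held 81.5% in 1267 and 85.8% in 782.

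Tumours of the same mouse could be compared in mice 948 and 2721. In mouse 2721 the pair was close. Adamts1 had 7.46 and 6.14 CPM, Adamts5 12.4 and 12.97 CPM and Adamts10 70.5 and 77.1 CPM in tumours 1 and 2, and the widest gap was that of Adamts15, with 6.34 and 14.5 CPM (147 and 311 counts). In mouse 948 the pair was far apart. Adamts9 had 0.411 CPM in tumour 1 and 5.02 CPM in tumour 2, Adamts10 had 2.35 and 26.8 CPM, and Adamts2 had 3.94 and 20.1 CPM, whereas Adamts5 went the other way with 14.4 and 4.24 CPM. Adamts1, with 2.995 and 13.34 CPM, and Adamts4, with 0.235 and 1.33 CPM, were lower in tumour 1. Adamts15, with 1.59 and 2.67 CPM, was the closest of the 7 detected genes in that mouse. Tumour 1 of mouse 948 is also 1 of the libraries low in long transcripts (-0.58 against 0.34 in tumour 2), and the part of this in the gaps was not tested.

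**Figure D2:**
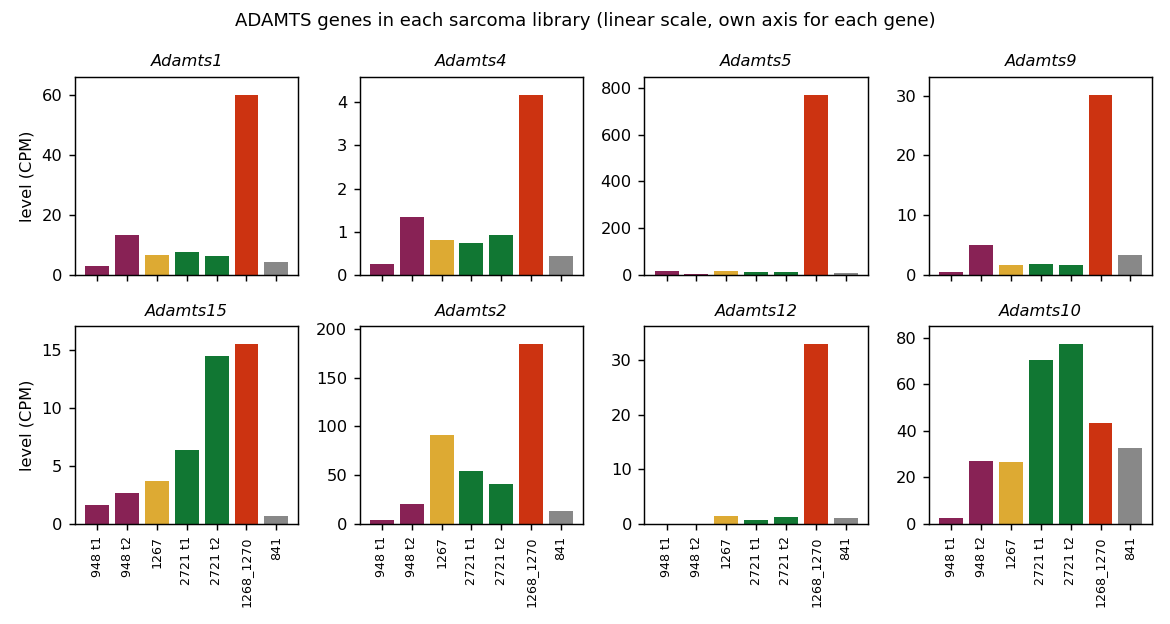
Level of each ADAMTS gene in CPM (bars, linear scale, own axis per gene) in the 7 sarcoma libraries, with t1 and t2 for tumours of the same mouse, which share a colour. Library 1268_1270 is highest for 7 genes, with 770 CPM of Adamts5, and Adamts10 is highest in the tumours of mouse 2721 at 70.5 and 77.1 CPM.

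Mice 1267 and 2721 allow both tissues to be set side by side within a mouse. In mouse 1267 all 8 genes were higher in the sarcoma than in the marrow. Adamts15 had 3.66 CPM against 0 counts, Adamts5 15.5 CPM against 0 counts, Adamts1 6.69 against 2.71 CPM, Adamts2 90.9 against 30.5 CPM and Adamts10 26.4 against 4.20 CPM. In mouse 2721 all 8 were higher too, with 10.25 CPM against 0 counts for Adamts15, 12.7 CPM against 0 counts for Adamts5, 6.83 against 0.898 CPM for Adamts1, 47.9 against 11.6 CPM for Adamts2 and 73.7 against 60.1 CPM for Adamts10. Both mice are among those that set the selection, so this too is a description. Marrow 1267 was also low in long transcripts (-0.63 against -0.008 in its sarcoma), while marrow 2721 was not (0.45). The part of this in the differences was not tested.

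The marrows divided by library as much as by gene. Marrows 737 and 779 had 0 counts for 7 of the 8 genes and marrow 782 for 6, while marrow 919, the deepest library, had counts for all 8. Adamts10 lay in 2 separate ranges, at 3.83 CPM in 782, 4.20 CPM in 1267, 6.97 CPM in 779 and 8.79 CPM in 737, against 52.8 CPM in 1103, 58.6 CPM in 919, 60.1 CPM in 2721, 73.1 CPM in 3332 and 84.6 CPM in 949. The 4 lower marrows are the 4 with the lowest long transcript values, -2.16 to -0.63, and the 5 higher ones lay between 0.16 and 0.45. Adamts10 has a transcript of 4043 bases and is not among the 1131 long genes behind that value. Adamts2 did not follow the same split, with 23.1 CPM in 782 and 30.5 CPM in 1267 among its highest values. The part of transcript coverage in these levels was not tested.

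**Figure D3:**
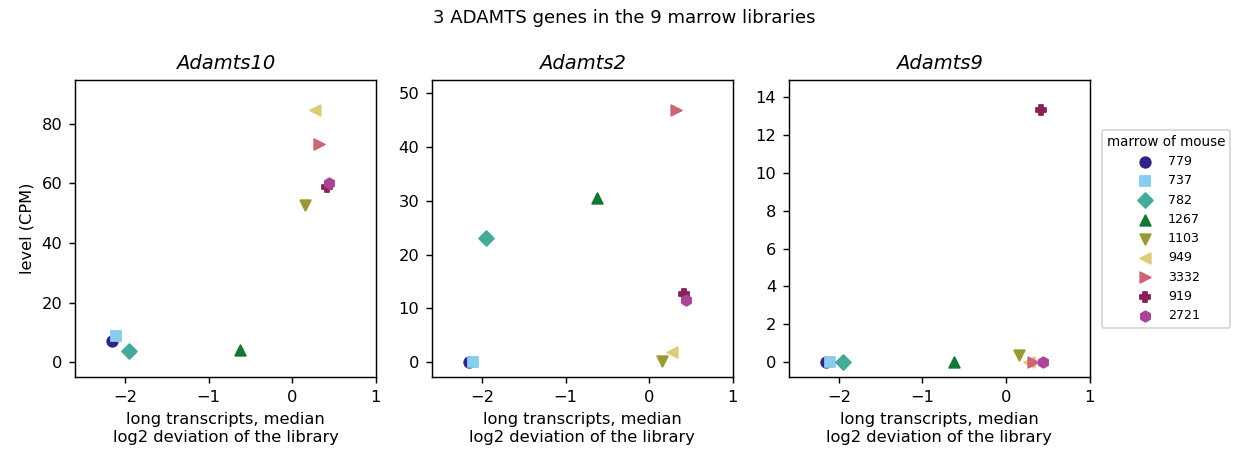
Level in CPM (y axis) of Adamts10, Adamts2 and Adamts9 in the 9 marrow libraries against the median log2 deviation of 1131 genes with transcripts over 6000 bases (x axis), 1 symbol per mouse. Adamts10 is under 10 CPM in the 4 libraries at the left and over 50 CPM in the 5 at the right, Adamts2 shows no such split, and Adamts9 is high in marrow 919 alone.

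The selection set sarcoma against marrow and not the sarcomas against one another, so the sarcoma with wild type SMC3 was compared with the 4 SMC3+/- sarcomas, with the lone tumour assumed to vary as they do. The levels of all 5 were in view when the genes were selected, so the comparison is not independent of that choice. Adamts15 had 8 counts there, or 0.703 CPM (95% exact Poisson interval 0.303 to 1.38 CPM, counting error only), below all 4 SMC3+/- sarcomas. The log2 difference of -3.47 ± 1.76 did not pass (edgeR adjusted p = 0.9999, unadjusted p = 0.0942). Adamts5 had 4.83 CPM, Adamts1 4.13 CPM and Adamts4 0.439 CPM, also below all 4, with log2 differences of -5.33 ± 3.57, -2.25 ± 1.72 and -1.84 ± 1.85 (edgeR adjusted p = 0.9999 for each). So 4 of 8 genes lay below the SMC3+/- range, where 19.2% of the 17762 genes tested did so, and 0 lay above it, and nothing is read from these counts. Without sarcoma 1268_1270 the differences shrank to -1.24 for Adamts5, -0.59 for Adamts1, -0.67 for Adamts4 and -2.81 for Adamts15.

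The other 4 lay within the SMC3+/- range. Adamts2 had 12.9 CPM, Adamts9 3.34 CPM, Adamts10 32.5 CPM and Adamts12 1.05 CPM, with log2 differences of -2.66 ± 1.56, -1.37 ± 2.11, -0.29 ± 1.01 and -3.01 ± 3.65 (edgeR adjusted p = 0.9999 for each). The differences of Adamts9 and Adamts12 turned to 1.01 and 0.58 without sarcoma 1268_1270, and that of Adamts10 to 0.30 without sarcoma 2721. Over all genes the edgeR test called 0 of 17762 (0%), with 236 at an unadjusted p under 0.05, and DESeq2 called 65, of which 0 were ADAMTS genes of this group of 8. With 1 tumour on one side, differences of the sizes above could not be told from the spread between mice. Of the other ADAMTS proteases, Adamts6 had 9.84 CPM in mouse 841 against 1.33 to 5.94 CPM in the SMC3+/- sarcomas, and Adamts3 had 5.71 CPM against 0.604 to 4.04 CPM. Both were picked after their values were seen, and neither passed (1.71 ± 1.14 and 1.58 ± 1.30, edgeR adjusted p = 0.9999 for each).

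The genes around these proteases were not part of the selection rule and were tested between tissues in the SMC3+/- mice. Of 57 tested genes in 8 lists, 18 were higher and 0 lower in sarcomas, with a median log2 difference of 2.37, whereas of all 14730 genes tested 4.49% were called higher and 0.0543% lower, with a median of 0.07. The lists were chosen with earlier results of these data known, so they are not independent of this contrast. A gene near 0 in marrow also passes the count filter only through the sarcomas. The share called higher is therefore partly preset. In 3 alternatives 1 gene was called lower, Osm with DESeq2 and Il1b with the mouse as a block and without sarcoma 948. Without sarcoma 1268_1270 8 of the 18 were called, and with the mouse as a block 6 of them were.

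None of the 7 tested among the 11 other ADAMTS proteases was called (median log2 difference 0.80). Adamts7, which cuts cartilage oligomeric matrix protein as Adamts12 does, had 2.57 ± 3.35 CPM in sarcomas and 0.0964 ± 0.152 CPM in marrow (4.59 ± 1.38, edgeR adjusted p = 0.0829). Adamts6, a relative of Adamts10, had 3.04 ± 2.09 and 1.13 ± 1.49 CPM (1.39 ± 1.52, adjusted p = 0.861). Adamts8, the chromosomal neighbour of Adamts15, was not above 0.606 CPM in any SMC3+/- sarcoma and was at 0 in 1268_1270, where Adamts15 was highest. Adamts16 had 0 counts in all 9 marrows and 0.168 to 1.77 CPM in the sarcomas, and did not pass the count filter.

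Of the 7 ADAMTS-like proteins, which have the repeats but no protease domain, 2 rose. Adamtsl1 went from 0.0868 ± 0.213 to 8.73 ± 10.5 CPM (6.44 ± 1.41, edgeR adjusted p = 0.0161, and 0.188 without 1268_1270 or 0.713 with the mouse as a block). Adamtsl5 went from 0.431 ± 0.757 to 10.8 ± 6.64 CPM (4.54 ± 1.19, edgeR adjusted p = 0.0425, and 1 with the mouse as a block). Its call was lost on leaving out marrow 737, 779, 919, 949, 1103 or 3332 or sarcoma 948, 1268_1270 or 2721 (edgeR adjusted p = 0.257 without 1268_1270).

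Of 4 tested inhibitors, 2 rose. Timp3, the main tissue inhibitor of these enzymes, went from 1.14 ± 1.49 CPM in marrow to 25.0 CPM in sarcoma 2721, 31.0 CPM in 948, 57.0 CPM in 1267 and 241 CPM in 1268_1270 (6.18 ± 1.15, edgeR adjusted p = 0.00636, and 0.0704 without 1268_1270 or 0.212 with the mouse as a block). Timp1 went from 0.102 ± 0.214 to 13.1 ± 6.97 CPM (6.77 ± 1.21, adjusted p = 0.00497, and 0.0166 without 1268_1270 but 0.314 with the mouse as a block), and unlike the ADAMTS genes it was lowest in 1268_1270, at 6.39 CPM, and highest in 1267, at 22.9 CPM.

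Of 8 genes for proenzyme maturation, retention and uptake, 2 rose, both convertases with 1268_1270 far above the rest. Pcsk5 had 43.9 CPM there and 1.59 to 1.79 CPM in the other 3 (7.07 ± 1.44, edgeR adjusted p = 0.0104), and Pcsk6 had 127.5 CPM against 1.04 to 2.98 CPM (7.69 ± 1.65, adjusted p = 0.0144). Neither was called without that tumour (adjusted p = 0.349 and 0.794) or with the mouse as a block (0.624 and 0.105). Furin, the best known ADAMTS convertase, had 157 ± 112 CPM in sarcomas and 106 ± 82.8 CPM in marrow, and Lrp1, the uptake receptor, 476 ± 411 and 204 ± 225 CPM, and neither was called.

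Of 11 tested matrix substrates, 4 rose. Dcn, the small proteoglycan decorin, went from 0.474 ± 0.756 to 461 ± 723 CPM (9.89 ± 1.28, edgeR adjusted p = 0.000831). Nid1 (nidogen-1, a basement membrane linker) and Thbs2 (thrombospondin-2) rose by 10.03 ± 1.51 and 8.48 ± 1.29 (adjusted p = 0.0016 and 0.00172). Nid1 had 1503 CPM in 1268_1270 and 19.95 to 28.7 CPM in the other 3, and Thbs2 had 516 CPM and 4.03 to 35.2 CPM. Without 1268_1270 the differences were 7.59 for Dcn, 5.98 for Nid1 and 5.52 for Thbs2 (adjusted p = 0.0033, 0.0308 and 0.0435). Bgn, biglycan, went from 2.94 ± 3.22 to 156 ± 102 CPM (5.68 ± 1.17, adjusted p = 0.0112, and 0.0592 without 1268_1270). With the mouse as a block the adjusted p was 0.0882 for Dcn, 0.125 for Nid1, 0.545 for Thbs2 and 0.569 for Bgn. The classic large substrates were not among the called genes. Vcan, versican, had 8.77 to 327 CPM in sarcomas against 1.85 to 544 CPM in marrow, and Acan, aggrecan, was not above 0.227 CPM in any SMC3+/- sample.

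The procollagen list, the substrates and partners of Adamts2 and its relatives, held the largest share, with 8 of 10 genes called higher and a median log2 difference of 5.86. Col3a1 went from 0.486 ± 0.707 to 642 ± 374 CPM (10.2 ± 1.18, edgeR adjusted p = 0.000427), Col5a2 from 0.427 ± 0.624 to 135 ± 155 CPM (8.17 ± 1.17, adjusted p = 0.00127) and Col1a1 from 7.39 ± 6.38 to 392 ± 278 CPM (5.67 ± 1.13, adjusted p = 0.00936). Pcolce2, an enhancer of the carboxy-terminal procollagen proteinase, had 2 marrow counts in all and 2.85 to 157 CPM in sarcomas (adjusted p = 0.000427). These 4 stayed called without 1268_1270 and with the mouse as a block. The other 4 called genes, Col1a2, Pcolce, Bmp1 and Tll1, were lost without 1268_1270 (edgeR adjusted p = 0.0625, 0.355, 0.257 and 0.103). With the mouse as a block Col1a2 and Bmp1 were called (edgeR adjusted p = 0.00757 and 0.032), and Pcolce and Tll1 were not. The sarcoma of mouse 948, lowest of the 4 for Adamts2, was also lowest for Col1a1 (78.6 CPM) and Col3a1 (186 CPM), and 1268_1270 was highest for all 3.

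No gene was called among the 4 tested of the hyaluronan list or the 6 cytokines known to induce Adamts genes in other cells. Cd44, the hyaluronan receptor, had 184 ± 162 CPM in sarcomas and 275 ± 118 CPM in marrow (-0.68 ± 0.54, edgeR adjusted p = 0.735), and Tnfaip6 3.10 ± 1.85 and 1.47 ± 2.03 CPM (1.07 ± 1.38, adjusted p = 0.898). Il1b had 19.1 ± 36.0 and 35.5 ± 41.5 CPM (-1.04 ± 1.27, adjusted p = 0.886, but 0.00757 with the mouse as a block and 0.046 without sarcoma 948, lower in sarcomas in both) and Tgfb1 127 ± 86.5 and 194 ± 87.8 CPM (-0.72 ± 0.49, adjusted p = 0.661).

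**Figure D4:**
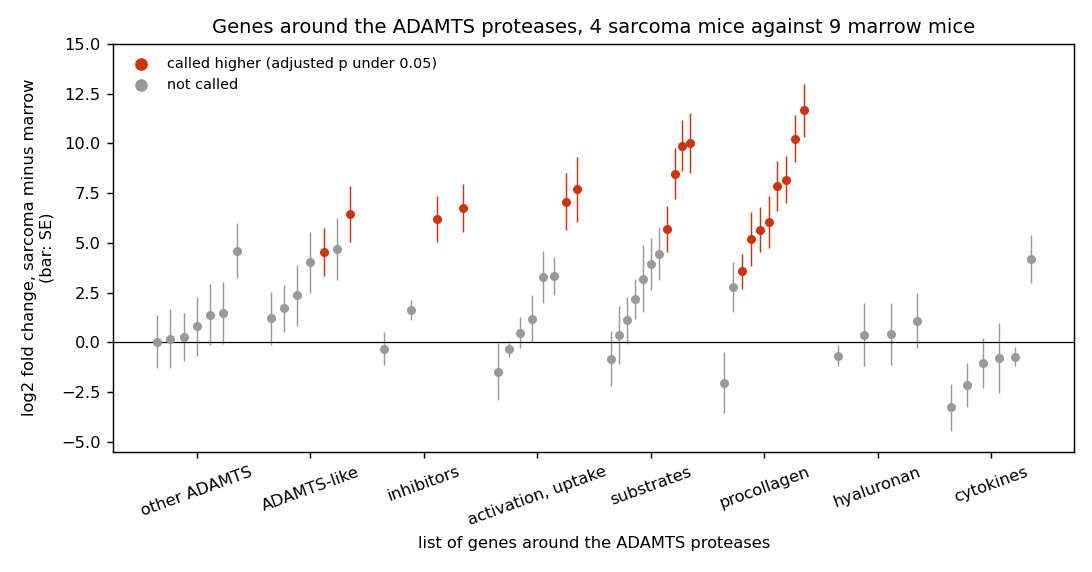
Log2 fold change, sarcoma minus marrow, with its approximate SE for each tested gene of the 8 lists around the ADAMTS proteases (4 SMC3+/- sarcoma mice, 9 marrow mice), red where the edgeR adjusted p is under 0.05. The procollagen list holds 8 of the 18 called genes, and the other ADAMTS proteases, hyaluronan and cytokine lists hold 0.

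Markers of several other cell types were also called higher in sarcomas, and their counts stand beside the 4.49% of all genes called higher. These lists too were chosen with earlier results of these data known. Of the fibroblast list 6 of 8 rose, with a sum of 716 to 14790 CPM in sarcomas and 206 to 970 CPM in marrow, of the pericyte and smooth muscle list 4 of 8 (130 to 767 against 1.95 to 67.2 CPM), of the endothelial list 3 of 8 (85.7 to 481 against 21.4 to 155 CPM), of the adipocyte list all 6 tested of 7 (219 to 42240 against 34.3 to 69.7 CPM), of the muscle list 4 of 7 (12.5 to 1431 against 7.83 to 78.0 CPM) and of the macrophage list 5 of 7 (558 to 1060 against 109 to 495 CPM). Without sarcoma 1268_1270 the genes called numbered 3 of the fibroblast, 1 of the pericyte, 1 of the endothelial, 4 of the adipocyte, 3 of the muscle and 2 of the macrophage list, and with the mouse as a block 3, 1, 1, 4, 1 and 4. Calls also depended on the tool. Of the 662 genes called higher over all genes, DESeq2 also called 326 and limma-voom 515. Only 60 of them stayed called once 1268_1270 and the 4 libraries with the lowest long transcript values were left out. The counts per marker list under these settings are not given here. Gsn alone made up 13350 CPM of the fibroblast sum in 1268_1270. In marrow that sum came mostly from Gsn (111 to 753 CPM), Pi16 (65.8 to 392 CPM) and Thy1 (4.27 to 278 CPM). Pi16 did not rise, with 68.2 to 146.5 CPM in the SMC3+/- sarcomas and the lowest of these in 1268_1270. Lum, a fibroblast proteoglycan, went from 0.00622 to 70.0 CPM on average (edgeR adjusted p = 0.000144). The 8 leukocyte markers, 0 of which were called, summed to 478 to 7676 CPM in sarcomas and 4282 to 9508 CPM in marrow. In 1268_1270, where 7 of the 8 ADAMTS genes peaked, the fibroblast, pericyte, endothelial and adipocyte sums peaked too and the leukocyte sum was lowest. The muscle and macrophage sums instead peaked in sarcoma 948 (1431 and 1060 CPM), where the summed CPM of the 8 ADAMTS genes was lowest. Of the cartilage and bone, Schwann cell and epithelial lists 4 of 8, 2 of 4 and 2 of 5 genes were tested and 0 were called. Col11a1 had 2.92 ± 3.21 CPM in sarcomas, highest in 1267 at 7.41 CPM, and 0.0686 ± 0.132 CPM in marrow (5.09 ± 1.38, edgeR adjusted p = 0.0502), and Krt18 had 5.23 ± 3.63 and 0.479 ± 0.823 CPM (3.41 ± 1.49, adjusted p = 0.31). Krt8, which did not pass the count filter, had 0.0577 CPM in sarcoma 1267 to 11.65 CPM in 1268_1270 and at most 0.0232 CPM in marrow. Sox9 and Krt5 were at 0 in all 9 marrows. The part of these cell types in the ADAMTS levels was not tested.

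Across the 14 samples, the genes whose profile was most like that of Adamts15 were Rgs4, Vtn, Gpc6, Tmod2 and Hoxd8. The root mean square difference between centred log2 CPM profiles was 0.53 for Rgs4, a regulator of G-protein signalling, 0.58 for Vtn, the matrix glycoprotein vitronectin, 0.62 for Gpc6, a glypican, 0.68 for Tmod2 and 0.68 for Hoxd8. Rgs4 had 1.71 CPM in sarcoma 948, 1.99 CPM in 1267, 3.09 CPM in 2721 and 9.70 CPM in 1268_1270, with 0 counts in every marrow. Rgs4 and Vtn thus had the same order of sarcomas as Adamts15, and Gpc6, Tmod2 and Hoxd8 did not. Gpc6 had 5.51 CPM in 1267 and 2.98 CPM in 2721, Tmod2 was lowest in 1267 (1.76 CPM) and Hoxd8 was lowest in 2721 (2.305 CPM). Among the 8 genes the closest pair was Adamts4 and Adamts15 at 1.40, also the pair with the most alike zinc sites, and Adamts2 and Adamts5 were the least alike at 3.64. The next closest pair, Adamts4 and Adamts12 (1.48), shared 23 of 33 bases, while Adamts1 and Adamts9, with 28 shared, stood at 2.06. A link between levels and zinc sites was not tested. The nearest gene to Adamts1 was Igsf10 (1.05), to Adamts2 Ddr2, a collagen receptor (1.44), to Adamts4 Zfp133-ps (0.47), to Adamts5 Col16a1 (0.94), to Adamts9 Boc (0.95), to Adamts10 Apbb3 (0.56) and to Adamts12 Galnt18 (0.79). Ddr2 and Boc were highest in 1268_1270 at 213 and 93.1 CPM, while Apbb3 was highest in 2721 at 25.2 CPM, as Adamts10 was. These likenesses are descriptions over samples that share libraries and depth.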

How the data were processed

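The authors deposited raw counts per gene symbol for 16 libraries. Per the submitters' processing notes the tools were STAR, DESeq and DESeq2 and the build mm9, and no source used here gives the strand setting or the annotation counted. Tumours of 1 mouse were summed, which left 14 samples of 1 mouse and tissue. Counts were TMM-scaled, filtered with filterByExpr and tested with edgeR 4.0.16 (glmQLFit, robust, glmQLFTest) under R 4.3.3, two-sided, with Benjamini-Hochberg adjustment over all genes and a threshold of 0.05. DESeq2 1.42.0 and limma-voom (limma 3.58.1) were alternatives. SE is the absolute log2 fold change over the square root of F. The scripts were tested on simulated counts. Transcript lengths came from GENCODE M21 (GRCm38) by symbol and covered 95.2% of genes. Mice 1267 and 2721 pair the tissues per the labels, and their deviations correlated at 0.29 and 0.21 across 14730 genes. The closest libraries, both tumours of mouse 2721, differed by a mean chi-square per gene of 18.6, so none was a duplicate. Counts carry no molecular identifiers, so intervals cover counting error only.

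The 8 genes and all lists were chosen with earlier results of these data known. All 8 are named, up to 4 called genes per other list by smallest adjusted p, the 2 highest in sarcomas where fewer than 2 were called, and the genes most alike (5 for Adamts15, 1 for each of the others). Col1a2, Pcolce, Bmp1 and Tll1 were named beyond this rule to complete the called procollagen genes. Other examples outside the rule, such as Furin, Lrp1, Vcan, Acan, Adamts3, Adamts8, Adamts16, Gsn, Pi16, Thy1, Krt8 and Osm, were chosen after their values were seen.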

Additional observations from a re-analysis of the deposited data

Results flagged for a closer look

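Of 16 checks (8 genes in 2 groups), 9 found a sample whose gap to the next value was larger than Dixon's 95% limit. Chance gives about 1 in 20 such groups only for normally spread values, and these are CPM with many at 0, so the 9 are not set against that rate. In the sarcomas, all 5 were mouse 1268_1270, with 59.99 CPM of Adamts1, 4.171 CPM of Adamts4, 770.3 CPM of Adamts5, 30.11 CPM of Adamts9 and 32.96 CPM of Adamts12. The 3 without such a gap in that group were Adamts2, Adamts10 and Adamts15.

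In marrow the values were 13.33 CPM of Adamts9 and 0.04646 CPM of Adamts15 in mouse 919, 2.708 CPM of Adamts1 in mouse 1267 and 0.5611 CPM of Adamts12 in mouse 2721. The Adamts15 value rests on 2 counts, and with 0 in the other 8 marrows any count would have given this. The next highest Adamts9 value in marrow was 0.3892 CPM.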

How the results depend on the processing

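The tissue difference of Adamts15 kept its sign in 23 alternatives. Adamts15 was selected on this contrast and had 2 marrow counts in all against 987 in sarcomas. Its sign could therefore hardly turn, and nothing is read from its being kept. The size moved by more than the spread between mice in 4 alternatives. It was 7.536 in limma-voom, 10.55 in the fit blocked by mouse and 11.7 after scaling to 8 leukocyte genes (chosen after seeing the data). The fourth was the fit without marrow 919, which leaves 0 marrow counts. The fits leaving out 1 sample gave 8.742 to 10.62. Adamts1, Adamts2, Adamts4, Adamts5, Adamts9 and Adamts12 kept their sign as well, and Adamts10 did not. The 662 genes called higher became 1355 without the count filter, 107 with the mouse as a block, 300 without the 4 libraries low in long transcripts, 62 without these and sarcoma 1268_1270, and 6252 with leukocyte scaling, which shifts the median of all genes from 0.07 to 1.83. The 8 called lower became 83 with DESeq2, 20 with limma-voom, 13 without the count filter, 17 with tumours as units, 23 with the mouse as a block, 3 without the 4 libraries and 0 without these and 1268_1270. The 18 genes around the proteases became 6 with the mouse as a block, 8 without the 4 libraries and 1268_1270, and 35 with leukocyte scaling. Leaving out 1 sample gave 170 to 762 genes higher, 0 to 16 lower and 8 to 19 around the proteases, lowest in each case without 1268_1270. For mouse 841, DESeq2 called 65 genes and leaving out 1 mouse gave 0 to 1, while the log2 difference went from -1.718 to 1.009 for Adamts9 and from -3.377 to 0.5826 for Adamts12 (both positive without 1268_1270) and from -0.4482 to 0.3044 for Adamts10 (positive without 2721). The causes were not tested. At 0 counts over all marrows, levels up to 0.01456 CPM would not be seen.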
